A study of Homo sapiens with 12 samples.

Results

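Tubulin genes encode the alpha and beta subunits that pair and assemble into microtubules, and 10 of them were followed here: 6 beta genes (TUBB, TUBB2A, TUBB2B, TUBB3, TUBB4B and TUBB6) and 4 alpha genes (TUBA1A, TUBA1B, TUBA1C and TUBA4A). They were chosen by symbol from 57755 gene identifiers, and all 10 passed the filter on low values that left 15610 genes for testing. The libraries come from KYSE510 and TE7, established human lines of esophageal squamous cell carcinoma. Each line gave 6 RNA-seq libraries, 1 per condition: a DMSO control, a series of 2, 4, 6 and 12 h with 50 nM THZ1, and a single higher dose, 200 nM, harvested after 6 h. THZ1 is a covalent inhibitor of CDK7, which at higher doses also binds CDK12 and CDK13. The series is titled as a study of super-enhancer oncogenes in this cancer, and the question here is how members of 1 family differ in loss by time and by dose. Each DMSO library is titled 0 h but carries a time label of 12 h. No DMSO library is labelled 2, 4 or 6 h, so the effect of hours in THZ1 and that of hours since seeding or handling cannot be told apart.

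Cells hold several near-identical tubulin genes that differ in where they are used. TUBB, TUBB4B, TUBA1B and TUBA1C are broadly expressed, while TUBB2A, TUBB2B, TUBB3 and TUBA1A are known from neurons. The level of tubulin mRNA is also set after transcription: when free tubulin is in excess, TTC5 recognises the start of the newly made protein on the ribosome, and with SCAPER and the CCR4-NOT deadenylase it directs the mRNA to decay. CDK7 acts at the start of transcription by RNA polymerase II, upstream of these steps.

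The first 24 coding bases of each gene are shown because the family is alike here and because they encode the start of the protein, which TTC5 recognises. They were read from GENCODE 29 transcripts (GRCh38), 5′ to 3′, and the capitals mark codons 2 to 4, just after the start codon.
TUBB: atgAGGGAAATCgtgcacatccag
TUBB4B: atgAGGGAAATCgtgcacttgcag
TUBB6: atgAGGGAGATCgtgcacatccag
TUBB3: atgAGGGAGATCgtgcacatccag
TUBB2A: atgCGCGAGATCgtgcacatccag
TUBB2B: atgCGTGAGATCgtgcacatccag
TUBA1A: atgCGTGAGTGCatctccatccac
TUBA1B: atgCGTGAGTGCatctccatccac
TUBA1C: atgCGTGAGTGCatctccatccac
TUBA4A: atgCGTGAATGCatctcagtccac
TUBA1A, TUBA1B and TUBA1C share all 24 bases, as do TUBB3 and TUBB6. TUBB and TUBB4B share the capital letters. TUBA1B and TUBA1C, identical here, had unlike changes with dose, and whether this stretch plays a part in any change was not tested.

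Beyond the start, the coding sequences of TUBB2A and TUBB2B were 98.2% identical, with an identical stretch of 725 bases. TUBA1A, TUBA1B and TUBA1C were 96.29% to 97.25% identical in pairs, with identical stretches of 164 to 326 bases, and any alpha and beta gene shared 54.3% to 56.3%. Of all runs of 50 coding bases in TUBB2A, 72.55% also occur in TUBB2B. The share found in another of the 10 genes was 58.3% in TUBA1A, 68.25% in TUBA1B and 57.1% in TUBA1C, 11.45% in TUBB3, 7.31% in TUBB4B, 1.55% in TUBB6, and 0% in TUBB and TUBA4A. For TUBB, 29.3% of its runs also occur in the pseudogene TUBBP1. For TUBA1B, 75.7% of its runs occur in some other gene, whether or not among the 10. Reads from such stretches can be split between genes by the authors' counting, so values of TUBB2A, TUBB2B, TUBA1A, TUBA1B and TUBA1C are uncertain. TUBA1B is also the gene that others are set against below. On hg19, the build of the authors' tables, the listed spans of TUBA1A (chr12:49578579-49583107) and TUBA1C (chr12:49582519-49667114) also overlap.

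**Figure D1:**
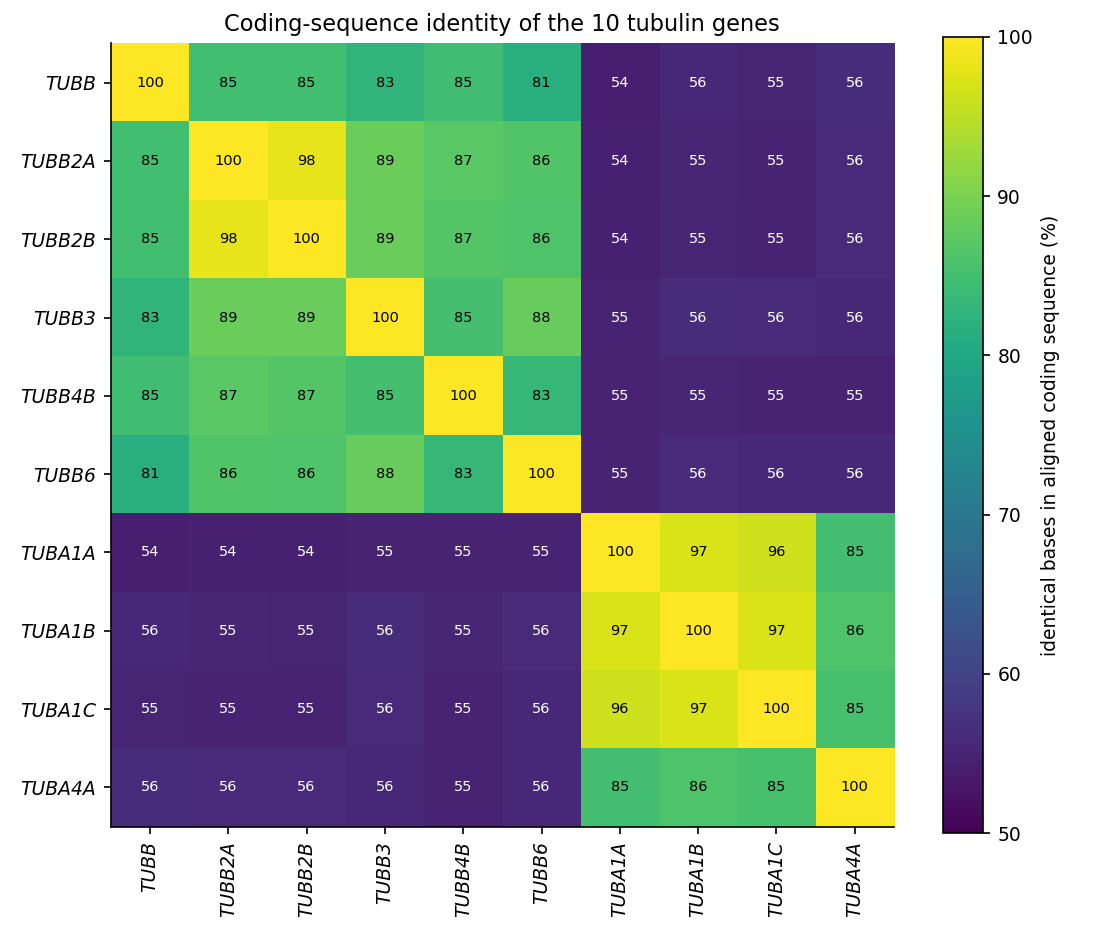
Heat map of the percentage of identical bases in aligned coding sequences for each pair of the 10 tubulin genes (both axes: gene; colour: percent). Alpha genes and beta genes form separate blocks, with the highest off-diagonal value, 98.2%, between TUBB2A and TUBB2B.

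The levels of the members in each library are in FPKM, fragments scaled to transcript length and to library size. FPKM is relative to all fragments of a library, so a loss shared by all genes does not show in it. A rise in FPKM cannot be told apart from a smaller loss than that of other genes. Neither fewer cells nor less RNA per cell can be read from these bulk values. TUBA1B (hg19 chr12:49521565-49525180) was the most abundant alpha gene in every library, and TUBB (chr6:30687978-30693203) or TUBB4B (chr9:140135665-140138159) the most abundant beta gene. Each line has 1 library per condition, so neighbours in an order of levels have no replicate spread to set them apart. In DMSO the order from high to low was TUBA1B, TUBB, TUBB4B, TUBA1C, TUBA4A, TUBB6, TUBB3, TUBA1A, TUBB2A and TUBB2B in KYSE510. The order in TE7 DMSO was TUBA1B, TUBB4B, TUBB, TUBA1C, TUBA4A, TUBB6, TUBA1A, TUBB3, TUBB2A and TUBB2B. TUBB and TUBB4B changed places between the lines, as did TUBB3 and TUBA1A. The 95% bounds in the authors' tables lay 3.08% to 21.9% above the member's value, apart from TUBB2B. For TUBB2B they reached 69.2% at its lowest level. The bounds come from single libraries and do not cover the spread between replicates.

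**Figure D2:**
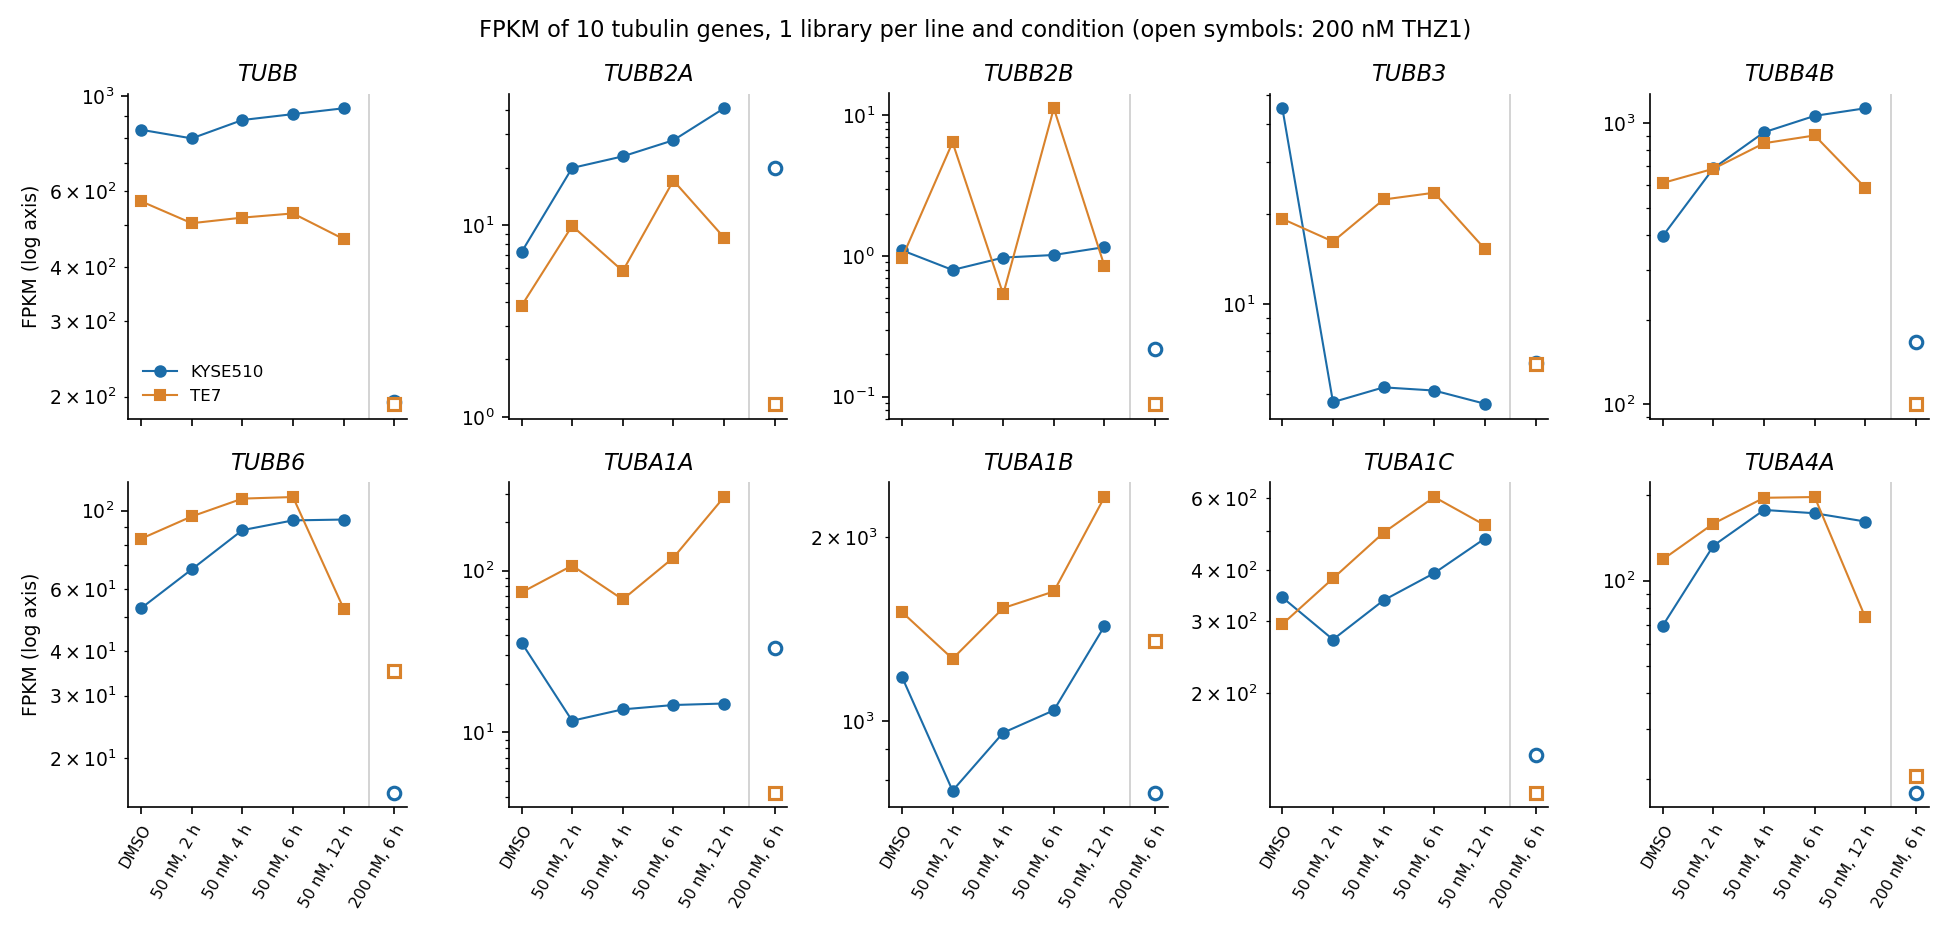
FPKM (log axis) of the 10 tubulin genes by condition; filled circles joined by lines are KYSE510, filled squares TE7, and open symbols the 200 nM library, with 1 library per point. In both lines the open symbols of TUBB, TUBB4B, TUBB6, TUBA1C and TUBA4A lie below all filled ones.

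Some libraries stood apart. Across genes, KYSE510 DMSO correlated with the other KYSE510 libraries at r = 0.819 to 0.879, while the 50 nM libraries of KYSE510 correlated with each other at 0.939 to 0.992. The 200 nM libraries correlated with the others of their line at 0.819 to 0.865 in KYSE510 and 0.842 to 0.865 in TE7. Genes that reached 8 FPKM in DMSO yet lay under 0.3 FPKM in all 50 nM libraries of the line numbered 50 in KYSE510 and 4 in TE7, and 61 and 1 did the opposite. Set against the same 50 nM libraries, the 200 nM library had 35 genes on and 54 off by these limits in KYSE510, and 27 and 82 in TE7. All 9 squamous markers reached 1 FPKM in every KYSE510 library and 8 of 9 did in every TE7 library, where SOX2 was 0.98 FPKM at 200 nM. KRT6A, a keratin of stratified epithelium, was 14.4 FPKM in KYSE510 DMSO against 1500 FPKM at 2 h, and KRT14, of basal cells, was 2.62 FPKM in KYSE510 at 200 nM against 514 FPKM at 50 nM for 6 h. Whether KYSE510 DMSO and KYSE510 at 200 nM hold the same cells as the other KYSE510 libraries was not tested, and each KYSE510 change with dose or against DMSO rests on it; the TE7 values stand beside them. Calls that rest on these libraries are also given with 1 of them left out, since no comparison with 200 nM can be made without both of its libraries.

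The comparison of 200 nM with 50 nM THZ1, both at 6 h, asks how the family responded to dose and has no DMSO library on either side. At the higher dose 5 of the 10 genes fell: the beta genes TUBB, TUBB4B and TUBB6 and the alpha genes TUBA1C and TUBA4A. Over all genes tested, 21.9% were lower and 2.94% higher at 200 nM by the same test. Falls ranged from 3.59-fold in TUBB to 9.22-fold in TUBA4A on the scale of log2(FPKM + 1), while TUBA1B was at 1.28-fold less and did not pass. All changes below are means over the 2 lines (n = 2) with the standard error of limma, and adjusted p is that of limma with Benjamini-Hochberg adjustment over all genes.

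TUBA4A (hg19 chr2:220114433-220142892) encodes the alpha-tubulin whose gene does not specify the terminal tyrosine found in most others. In KYSE510 it stood at 69.4 FPKM in DMSO, 133, 177, 173 and 162 FPKM at 50 nM for 2, 4, 6 and 12 h, and 17.9 FPKM at 200 nM. In TE7 it stood at 119 FPKM in DMSO, 159, 196, 197 and 74.2 FPKM over the same hours, and 20.4 FPKM at 200 nM. The 200 nM values lie below all 10 others. The log2 change from 50 to 200 nM was -3.20 ± 0.38 (SE), with -3.20 in KYSE510 and -3.21 in TE7 (adjusted p = 0.00152). Only 0.397% of the genes tested had a lower change.

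TUBB4B, a beta-tubulin of most tissues and of cilia, showed the other large fall. KYSE510 had 396 FPKM in DMSO, 690, 926, 1059 and 1127 FPKM at 50 nM over 2 to 12 h, and 166 FPKM at 200 nM. TE7 had 612 FPKM in DMSO, 687, 847, 902 and 588 FPKM at 50 nM, and 100.5 FPKM at 200 nM. Again no 200 nM value reached any other. The log2 change with dose was -2.91 ± 0.34 (SE), with -2.67 in KYSE510 and -3.15 in TE7 (adjusted p = 0.00147), and 0.743% of genes had a lower change.

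TUBB, the main beta-tubulin of dividing cells, moved least of the 5 at 50 nM and fell at 200 nM. Its KYSE510 values were 835 FPKM in DMSO, 797, 880, 908 and 937 FPKM at 50 nM, and 194 FPKM at 200 nM. The TE7 values were 569 FPKM, then 506, 522, 533 and 465 FPKM, and 192 FPKM at 200 nM. The lines differed at every condition but 200 nM, where they met. The log2 change with dose was -1.84 ± 0.23 (SE; -2.22 in KYSE510 and -1.47 in TE7; adjusted p = 0.00192).

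TUBA1C, a broadly expressed alpha-tubulin, had 343 FPKM in KYSE510 DMSO, 271, 338, 394 and 478 FPKM at 50 nM, and 141 FPKM at 200 nM. In TE7 there were 295 FPKM in DMSO, 382, 494, 604 and 516 FPKM at 50 nM, and 114 FPKM at 200 nM. Both 200 nM libraries are below the other 10. The log2 change with dose was -1.93 ± 0.27 (SE; -1.47 in KYSE510 and -2.39 in TE7; adjusted p = 0.00251).

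TUBB6 (hg19 chr18:12307668-12344319), a minor beta-tubulin, had 53.0 FPKM in KYSE510 DMSO, 68.2, 88.0, 93.8 and 94.3 FPKM at 50 nM, and 16.0 FPKM at 200 nM. TE7 had 83.3 FPKM, then 96.3, 108, 109 and 52.9 FPKM, and 35.2 FPKM at 200 nM. The ranges of 200 nM and of the other conditions do not overlap. The log2 change with dose was -2.04 ± 0.39 (SE; -2.48 in KYSE510 and -1.61 in TE7; adjusted p = 0.00848). This call was lost without the 50 nM library of 6 h of either line, at adjusted p = 0.0766 without that of KYSE510 and 0.0593 without that of TE7.

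TUBA1B, by contrast, was little lower at the higher dose. KYSE510 had 1181 FPKM in DMSO, 768, 956, 1040 and 1430 FPKM at 50 nM, and 762 FPKM at 200 nM; TE7 had 1509 FPKM, then 1264, 1531, 1631 and 2330 FPKM, and 1354 FPKM at 200 nM. In both lines the 200 nM value lay below the DMSO value and close to that of 2 h at 50 nM. The log2 change with dose was -0.36 ± 0.16 (SE; -0.45 in KYSE510 and -0.27 in TE7; adjusted p = 0.148; 95% interval -0.74 to 0.02), and its sign depended on scaling: it was 0.13, 0.19 and 0.35 after rescaling to equal sums, median-of-ratios and upper-quartile scaling. Over all genes the median log2 change was -0.46 as deposited and -0.13, -0.09 and 0.02 under these scalings. The 5 genes that fell were lower under each of them, though TUBB6 missed the threshold under upper-quartile scaling (adjusted p = 0.0556).

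The remaining 4 members did not pass and moved unevenly between lines. TUBB2A had log2 changes with dose of -0.46 in KYSE510 and -3.06 in TE7 (adjusted p = 0.0662), and TUBB2B -0.73 and -3.49 (adjusted p = 0.0829). TUBA1A was 1.13 in KYSE510 and -4.53 in TE7 (adjusted p = 0.390), from 14.8 to 33.5 FPKM and from 120 to 4.25 FPKM. TUBB3 was 0.26 and -1.75 (adjusted p = 0.482). The median change of the 10 members was -1.89, against -0.46 over all genes tested.

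**Figure D3:**
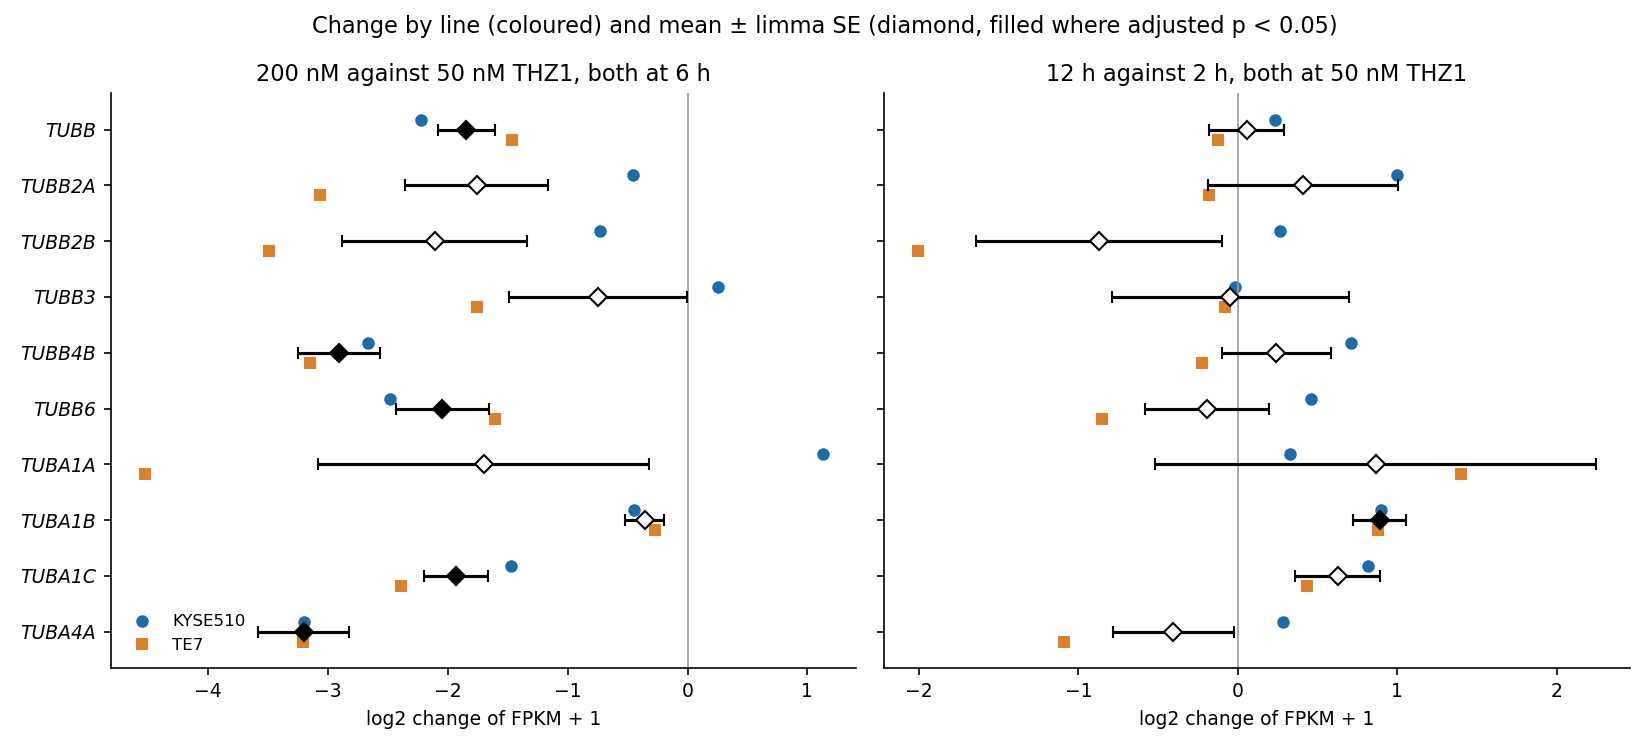
Log2 change of FPKM + 1 (x axis) for each tubulin gene, with circles for KYSE510, squares for TE7, and diamonds with bars for the mean ± SE from limma, filled where adjusted p is under 0.05. At left, 200 nM against 50 nM, 5 diamonds are filled, all on the negative side; at right, 12 h against 2 h, TUBA1B alone is filled, at 0.89.

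Because the 200 nM libraries stand apart, each was also left out, the lone remaining one being assumed to vary like the other conditions. Without the KYSE510 library 7 members were called lower: the same 5, with log2 changes of -1.48 (TUBB) to -3.20 (TUBB4B), and TUBB2A (-2.77, adjusted p = 0.00785) and TUBA1A (-4.40, adjusted p = 0.00957). Without the TE7 library the same 5 were called, from -1.62 (TUBA1C) to -3.27 (TUBA4A). With no term for the line the same 5 were called, the weakest being TUBB (adjusted p = 0.0461).

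The promoters of TUBB4B and TUBA1B are shown because TUBB4B is among the genes with the largest change with dose and TUBA1B has the smallest of the family. RefSeq sequences (GRCh38.p14) of the 250 bases before the start were at hand for all 10 genes, 15 promoters in all. They were searched on both strands for 4 motifs: the CCAAT box (the letters CCAAT), the TATA box (the letters TATAAA), the GC box (the letters GGGCGG) and the cAMP response element (the letters TGACGTCA). Capitals mark the CCAAT box or its reverse complement, and the sequences run 5′ to 3′ on the strand of the gene, the first from chr9:137241037-137241212 (plus strand), ending before the transcript of GENCODE 29, and the second from chr12:49131396-49131645 (minus strand).
TUBB4B: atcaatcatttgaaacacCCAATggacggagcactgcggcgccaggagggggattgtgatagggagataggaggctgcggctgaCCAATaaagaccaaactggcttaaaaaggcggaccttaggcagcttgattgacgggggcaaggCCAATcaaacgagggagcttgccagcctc
TUBA1B: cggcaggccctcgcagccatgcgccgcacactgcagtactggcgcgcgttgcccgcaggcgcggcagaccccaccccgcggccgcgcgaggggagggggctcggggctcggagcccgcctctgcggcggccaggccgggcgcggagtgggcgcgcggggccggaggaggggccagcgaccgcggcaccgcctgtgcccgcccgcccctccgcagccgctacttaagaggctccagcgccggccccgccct
TUBB4B holds 3 CCAAT boxes in the stretch shown and 0 GC boxes, and TUBA1B holds 0 CCAAT boxes and 3 GC boxes. The CCAAT box was found in 9 of the 15 member promoters (7 genes) and in 32% of all 35116 promoters. Overlapping promoters of TUBA1C (chr12:49227676-49227925 and chr12:49227769-49228018) hold the same CCAAT box, which is counted in each. TUBA4A, with the largest fall, has 0 CCAAT boxes and 4 GC boxes. The GC box was found in 9 of 15 (8 genes), against 42.6% of all, the TATA box in 1 against 10.7%, and the cAMP response element in 1 against 1.65%, both of these in TUBB2A. The G and C content was 81.2% in the TUBA1B promoter and 54.5% in the stretch of TUBB4B, where the median promoter has 58% over 250 bases. A match is a run of letters, not a bound site.

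Setting each gene against TUBA1B within its library asks whether members changed unlike the most abundant alpha gene. Relative to TUBA1B, the same 5 genes were lower at 200 nM than at 50 nM, where 8.26% of all genes were lower by this test. The relative log2 changes were -2.85 ± 0.43 for TUBA4A (adjusted p = 0.00821), -2.55 ± 0.41 for TUBB4B (0.00972), -1.69 ± 0.40 for TUBB6 (0.0333), -1.57 ± 0.27 for TUBA1C (0.0121) and -1.49 ± 0.24 for TUBB (0.00972). None of them passed with no term for the line, nor without the 50 nM library of 6 h of either line.

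**Figure D4:**
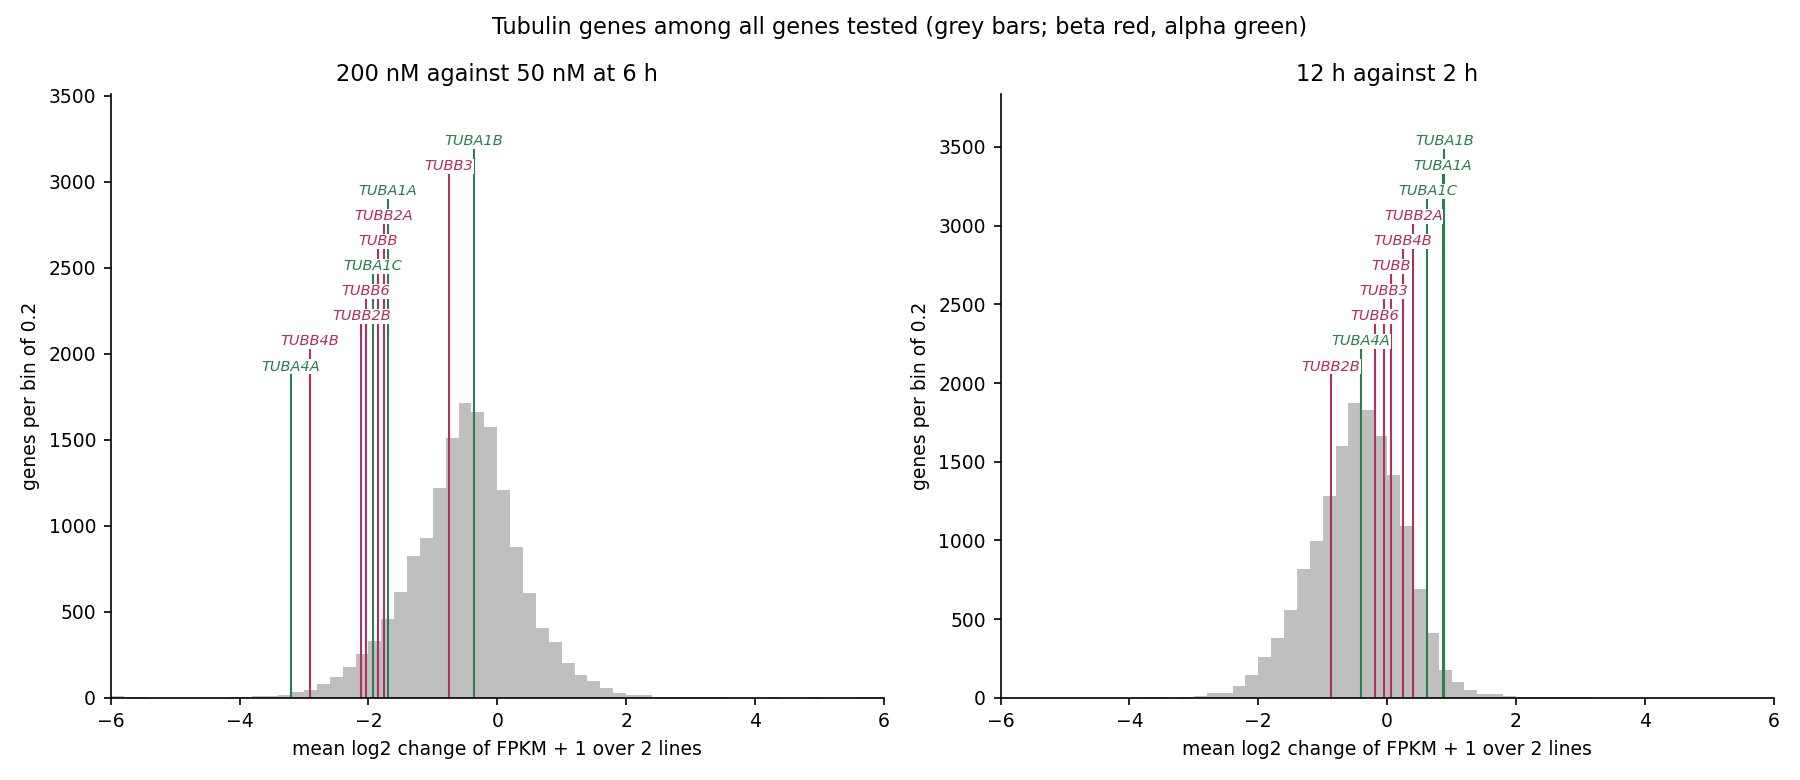
Number of genes (y axis) by mean log2 change over the lines (x axis, bins of 0.2) for 200 nM against 50 nM at 6 h and for 12 h against 2 h; grey bars are all 15610 genes tested and vertical lines the tubulin genes, beta in red and alpha in green. In the dose comparison TUBA4A and TUBB4B lie at the far left and TUBA1B near the middle; in the time comparison TUBA1A and TUBA1B lie at the right.

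These unequal falls changed the make-up of tubulin mRNA. The sum of the 4 alpha genes was 1621.5 FPKM in KYSE510 and 2552 FPKM in TE7 at 50 nM for 6 h, and 955 and 1493 FPKM at 200 nM. The sum of the 6 beta genes was 2095 and 402 FPKM at these doses in KYSE510, and 1597 and 336 FPKM in TE7. The ratio of alpha to beta FPKM was 0.774 at 50 nM and 2.37 at 200 nM in KYSE510, and 1.60 and 4.45 in TE7; in DMSO it was 1.22 and 1.55. It was also 2.83 in TE7 at 50 nM for 12 h, above the KYSE510 ratio at 200 nM, against 0.946 in KYSE510 at 12 h. TUBA1B made up 64.2% of alpha FPKM at 50 nM and 79.8% at 200 nM in KYSE510, and 63.9% and 90.7% in TE7. Within beta, TUBB and TUBB4B together kept 87.3% to 94.1% in every library. These sums and ratios are given by library and were not tested. Tubulin pseudogenes (37 rows) added at most 0.531% to the tubulin FPKM of a library.

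**Figure D5:**
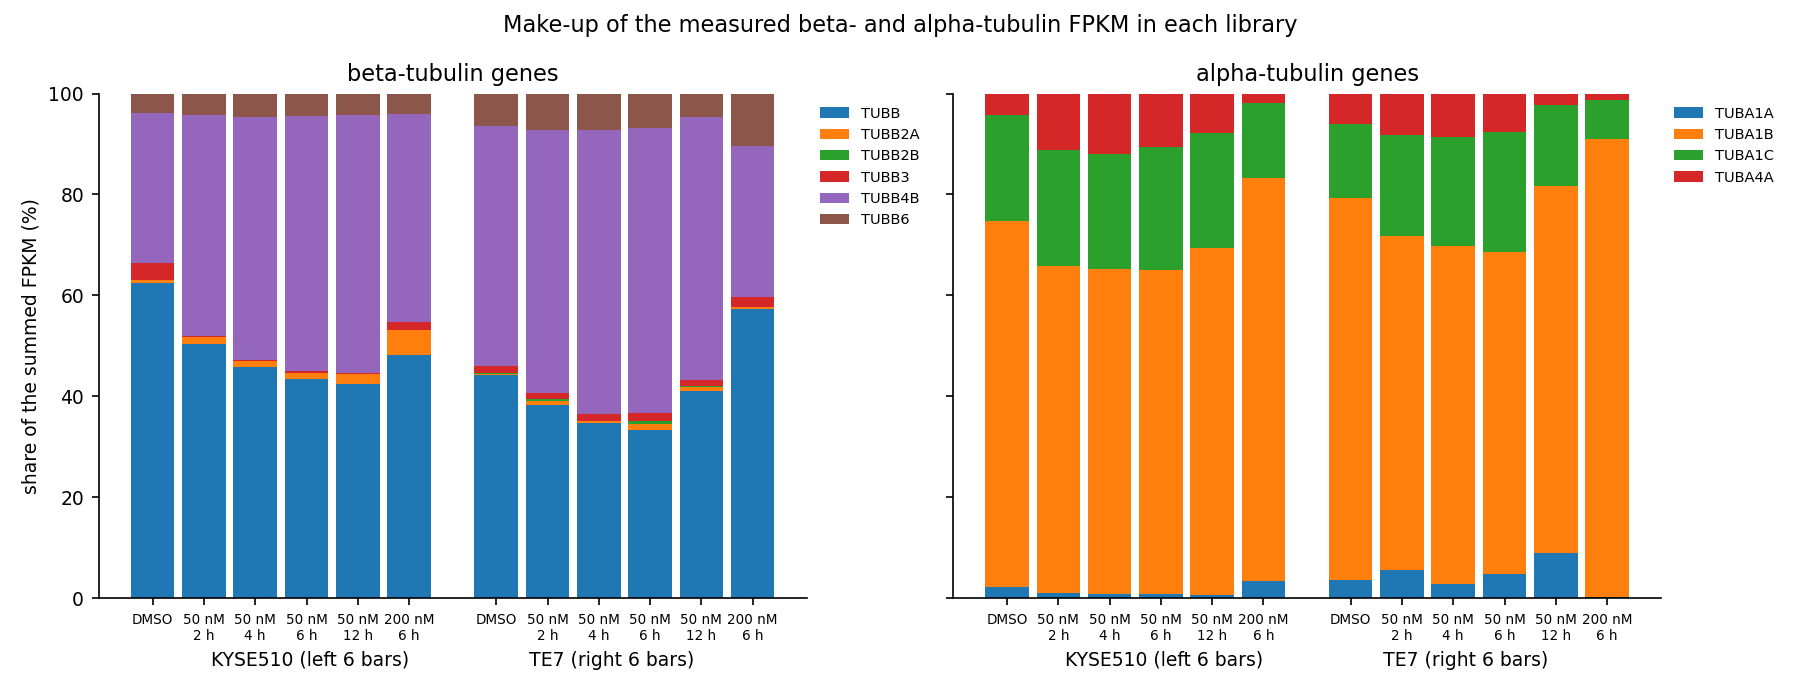
Share of the summed FPKM (y axis, percent) taken by each beta gene (left panel) and each alpha gene (right panel) in each of the 12 libraries, KYSE510 as the left 6 bars and TE7 as the right 6. TUBA1B takes 79.8% and 90.7% of alpha FPKM in the 200 nM bars, against 63.9% to 75.6% in the others.

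Against DMSO, the same 5 genes were lower at 200 nM for 6 h, where 35.3% of all genes were lower and 3.22% higher; this comparison shares its 200 nM libraries with the one above. The log2 changes were -2.19 ± 0.38 for TUBA4A (adjusted p = 0.00371), -1.92 ± 0.34 for TUBB4B (0.00401), -1.83 ± 0.23 for TUBB (0.00118), -1.44 ± 0.39 for TUBB6 (0.0216) and -1.32 ± 0.27 for TUBA1C (0.00693). TUBA1B was at -0.39 ± 0.16 (adjusted p = 0.0927). Without KYSE510 DMSO the same 5 were called, from -1.06 (TUBA1C) to -2.61 (TUBA4A), TUBB6 at adjusted p = 0.0462. Without KYSE510 at 200 nM 5 were called, with TUBA1A (-4.66, adjusted p = 0.00527) in place of TUBB6 (-0.98, adjusted p = 0.107), and without TE7 at 200 nM 6 were, TUBA1B being added (-0.50, adjusted p = 0.0423). Without TE7 DMSO 6 were called as well, TUBB3 and TUBA1B being added and TUBB6 lost. The count of 5 became 3 under median-of-ratios scaling and 0 under upper-quartile scaling, where TUBA1B was called higher at 0.73. Splits over all genes moved too, from 503 higher and 5503 lower as deposited to 2681 and 1375 under upper-quartile scaling; for the dose comparison they moved from 459 and 3412 to 1522 and 1196.

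Over time at 50 nM no tubulin gene was called lower against DMSO. At 2, 4, 6 and 12 h against DMSO, 0 of 10 members were called in either direction by limma; at an unadjusted p under 0.05 there were 1, 2, 3 and 3. Over all genes 0.0128%, 0.0769%, 4.71% and 28.4% were called, with 25.2% lower and 3.27% higher at 12 h. That balance at 12 h turned with scaling: 510 genes were higher and 3929 lower as deposited, 1798 and 1656 under median-of-ratios, and 2886 and 1131 under upper-quartile scaling. These 4 comparisons share the DMSO libraries. At 12 h the median log2 change of the members was 0.32, against -0.42 over all genes tested, and 7 of the 10 were above 0 as deposited. By line, 8 of 10 were above 0 in KYSE510 (median 0.38) and 4 of 10 in TE7 (median -0.07), where all genes had medians of -0.27 and -0.52. Without KYSE510 DMSO, from which the KYSE510 changes are measured, 6 of 10 were above 0 (median 0.31). Under median-of-ratios scaling, where the median of all genes was 0.04, 4 members were called higher at 12 h: TUBB2A, TUBB4B, TUBA1B and TUBA1C. Under upper-quartile scaling, where it was 0.27, 6 were, TUBB and TUBA4A being added.

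The comparison of 12 h with 2 h has no DMSO library on either side. Its standard error, as in the dose comparison, still comes from all 12 libraries, those that stand apart among them. Of the 10 genes, TUBA1B was higher at 12 h and 0 were lower, while 1.88% of all genes were higher and 20% lower. As deposited these were 293 and 3126 genes, against 1292 and 995 under median-of-ratios and 2144 and 593 under upper-quartile scaling, so that a rise was the less common direction only as deposited and after equal sums (150 and 4151). TUBA1B stood at 768 FPKM at 2 h and 1430 FPKM at 12 h in KYSE510, and at 1264 and 2330 FPKM in TE7, with a log2 change of 0.89 ± 0.16 (SE; 0.90 in KYSE510 and 0.88 in TE7; adjusted p = 0.00966). It was positive under every alternative, from 0.64 to 1.82, but missed the threshold with no filter on low values (adjusted p = 0.0544), with no term for the line (0.312), and without either 2 h library or the 12 h library of TE7 (0.0734 to 0.0842). TUBA1C was 0.63 ± 0.27 (adjusted p = 0.136), with 271 to 478 FPKM in KYSE510 and 382 to 516 FPKM in TE7.

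Relative to TUBA1B, 3 genes were lower at 12 h than at 2 h, where 69.9% of all genes were lower by this test: TUBA4A (-1.29 ± 0.43, adjusted p = 0.0265), TUBB6 (-1.08 ± 0.40, 0.0406) and TUBB (-0.83 ± 0.24, 0.0154). None of the 3 passed with no term for the line, nor without either 2 h library or the 12 h library of TE7. Relative to TUBA1B and to DMSO at 12 h, TUBB3 was lower (-2.13 ± 0.70, adjusted p = 0.0372), where 44.1% of all genes were lower; without KYSE510 DMSO this was -1.01 with adjusted p = 0.214, and the call was also lost without either 2 h library or the 12 h library of TE7.

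A linear trend over 0, 2, 4, 6 and 12 h rose for 3 members: TUBB2A at 0.117 ± 0.042 log2 per hour (adjusted p = 0.0477), TUBA1C at 0.0592 ± 0.0186 (0.0299) and TUBA1B at 0.0536 ± 0.0176 (0.0346). Trends rose in 6.91% and fell in 39.1% of all genes. TUBB and TUBB6 had slopes of -0.0010 and 0.0014 log2 per hour, neither of which passed. Without the DMSO libraries the slope of TUBA1B was 0.0847 (adjusted p = 4.6e-05) and that of TUBB2A 0.0527 (adjusted p = 0.240). Leaving out the 12 h libraries put TUBA1B at 0.0095 (adjusted p = 0.861) and TUBA1C at 0.109 (adjusted p = 0.0306). None of the 3 was called after rescaling to equal sums (adjusted p = 0.0827 to 0.0977), with no filter (0.0739 to 0.113) or with no term for the line (0.0555 to 0.116).

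In TE7 the hours after 6 h separated the genes. From 6 to 12 h TUBA4A went to 0.376 of its level, TUBB6 to 0.484, TUBB4B to 0.652 and TUBB to 0.872, while TUBA1B went to 1.43 times and TUBA1A to 2.37 times. In KYSE510 the same genes went to 0.935, 1.01, 1.06, 1.03, 1.37 and 1.02 times. In TE7 the alpha genes TUBA1A and TUBA1B were at their highest at 12 h, and TUBA4A and the beta genes TUBB, TUBB3, TUBB4B and TUBB6 at their lowest outside 200 nM, though the authors' bounds overlapped those at 2 h for TUBB3 and those in DMSO for TUBB4B. The alpha gene TUBA1C went to 0.853 of its 6 h level. This contrast of 12 h with 6 h was not tested. The slopes of the lines did not pass a test of their difference in any member (0 of 10, against 0.0705% of all genes by limma); TUBA1A, TUBB6 and TUBB4B, 3 in all, had an unadjusted p under 0.05.

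TUBB2A, TUBB2B and TUBA1A moved in steps in TE7. TUBB2B stood at 0.97 FPKM in DMSO and 6.43, 0.54, 11.2 and 0.85 FPKM at 2, 4, 6 and 12 h, with 0.09 FPKM at 200 nM. TUBB2A, its near-identical neighbour on chromosome 6, stood at 3.80, 9.95, 5.78, 17.2, 8.64 and 1.17 FPKM in the same libraries. Both were higher at 2 and 6 h than at 4 h. At 12 h TUBB2B was back near its DMSO level, while TUBB2A stayed above its own and its bounds (7.97 to 9.32 FPKM) overlapped those at 2 h (9.22 to 10.7 FPKM). TUBA1A was 73.4, 108, 66.4, 120, 285 and 4.25 FPKM. In KYSE510 TUBB2B kept to 0.80 to 1.16 FPKM outside 200 nM, where it was 0.22 FPKM, and TUBB2A went from 7.25 FPKM in DMSO to 20.0, 23.0, 27.9 and 41.0 FPKM at 50 nM and 20.0 FPKM at 200 nM. Whether reads shared by the pair play a part was not tested.

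TUBB3, the beta-tubulin used to mark neurons, was set apart by 1 library. It stood at 45.2 FPKM in KYSE510 DMSO and at 4.71, 5.27, 5.15 and 4.65 FPKM at 50 nM and 6.34 FPKM at 200 nM. The TE7 values were 19.3, 16.2, 22.4, 23.6, 15.3 and 6.29 FPKM. KYSE510 DMSO is thus the highest of the 12, and it is a library that stands apart. At 12 h against DMSO the log2 change was -1.67 ± 0.74 (adjusted p = 0.131), -0.38 without KYSE510 DMSO and -2.97 without TE7 DMSO (adjusted p = 0.692 and 0.0129). Of 8 neuron markers, RBFOX3, DCX, STMN2, GAP43 and ELAVL4 were under 1 FPKM in all libraries. The markers summed to 17.7 FPKM in KYSE510 DMSO, 4.66 to 7.06 FPKM at 50 nM and 38.9 FPKM at 200 nM, and to between 1.05 and 5.72 FPKM in TE7. NEFL, a neurofilament gene, was 11.1 FPKM in KYSE510 DMSO, 10.7 FPKM at 200 nM and 0.19 to 0.36 FPKM at 50 nM. MAP2 was 6.44 FPKM in KYSE510 DMSO, 13.4 FPKM at 200 nM and 2.77 to 4.89 FPKM at 50 nM. SYP, a synaptic vesicle gene, went the other way in KYSE510 DMSO, at 0.17 FPKM against 1.47 to 1.80 FPKM at 50 nM, and was 14.6 FPKM at 200 nM. GAP43 was 0 in KYSE510 DMSO and 0.12 to 0.36 FPKM at 50 nM. The part of these markers in the TUBB3 and TUBA1A values was not tested.

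Between the lines, over the same 6 conditions, TUBA1B was higher in TE7 (log2 difference 0.66 ± 0.09, adjusted p = 0.00160), and TUBB (-0.62 ± 0.14, 0.00774) and TUBB2A (-1.60 ± 0.34, 0.00744) were lower. Over all genes 28.9% were higher and 17.5% lower in TE7. TUBA1B was higher in TE7 and TUBB higher in KYSE510 at each condition, except that TUBB was 194 and 192 FPKM at 200 nM. Without the 3 libraries that stand apart, TUBB3 was among further members higher in TE7 (log2 difference 1.75), as the plot of levels shows for 50 nM. The difference of TUBA4A between the lines was 0.07 (95% interval -0.44 to 0.58) and did not pass. KYSE510 was grown in RPMI-1640 and TE7 in DMEM, so line and medium cannot be told apart.

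Across the 12 libraries, with line means removed, TUBA4A went with TUBB6 (r = 0.972) and TUBB4B (r = 0.971), TUBB with TUBB6 (r = 0.930), and TUBA1B with TUBA4A at r = 0.251. All pairs share the same libraries, the 200 nM ones among them. Among 9177 other genes whose mean over the libraries reached 5 FPKM, those most like TUBB were CAPZA1 (r = 0.995), ARHGAP11A (0.995), CHMP4B (0.991), OGFR (0.990) and UQCRFS1 (0.990). The genes most like TUBA1B were LAPTM4A (r = 0.953), MYEOV2 (0.944), IFITM3 (0.922), TMED2 (0.922) and PRDX6 (0.921). Both lists are descriptions over 12 libraries of 2 lines.

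The other genes of the pathway were taken from lists of known function, and counts are of those tested, beside 25.2% of all genes lower at 12 h and 21.9% with dose. Counts under median-of-ratios and upper-quartile scaling, called the scalings below and added after the data were seen, stand beside them. There 10.6% and 7.25% of all genes were lower at 12 h, and 9.94% and 7.66% with dose. After equal sums, also added then, 28.3% were lower at 12 h and 8.89% with dose. In the order of the lists below, 4, 3, 2, 6, 6, 1, 8 and 1 genes were then lower at 12 h and 0 higher. With dose 0, 0, 1, 1, 1, 1, 5 and 1 were lower, while 3 cofactors, 3 ring complex genes and 3 actin genes were higher. Of 5 other tubulins tested of 12, 3 were lower at 12 h against DMSO (1 and 0 under the scalings) and 0 at 200 nM against 50 nM. TUBG1, gamma-tubulin of the nucleating ring, was at -0.92 ± 0.24 (adjusted p = 0.0257) and TUBE1, epsilon-tubulin of centrioles, at -1.26 ± 0.23 (adjusted p = 0.00635) at 12 h. Of 7 cofactors that fold and pair tubulin, 3 were lower at 12 h, among them TBCA (-0.92 ± 0.18, adjusted p = 0.00845) and TBCE (-0.86 ± 0.23, 0.0283), and 0 with dose. Under the scalings 1 and 1 were lower and 2 and 3 higher at 12 h, and 4 and 4 were higher with dose. Of 14 genes of the CCT chaperonin and prefoldin, which fold actin and tubulin, PFDN6 was lower at 12 h (-1.10 ± 0.20, adjusted p = 0.00673), and PFDN1 (-1.68 ± 0.18, 0.00100) and CCT2 (-1.42 ± 0.30, 0.0123) with dose. Under the scalings 0 were lower at 12 h and 3 and 8 were higher, and with dose 1 and 1 were lower and 1 and 2 higher.

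Of 9 genes of tubulin mRNA autoregulation, 5 were lower at 12 h (55.6% of the list, against 25.2% of all genes) and 6 with dose (66.7%, against 21.9%), and 0 were higher in either. Under the scalings 2 and 1 were lower at 12 h, and 1 and 1 with dose. After equal sums 6 were lower at 12 h (66.7%, against 28.3% of all genes) and 1 with dose (11.1%, against 8.89%). Most of the calls with dose thus rest on the values as deposited. The count at 12 h was no smaller after equal sums but depended on scaling too. Under median-of-ratios 22.2% of the list was lower at 12 h, against 10.6% of all genes, and under upper-quartile scaling 11.1%, against 7.25%. TTC5, which reads the nascent chain, stood at 10.5 FPKM at 50 nM and 0.64 FPKM at 200 nM in KYSE510 and at 8.62 and 4.59 FPKM in TE7 (log2 change -1.80 ± 0.47, adjusted p = 0.0289). The deadenylase gene CNOT8 was at -2.06 ± 0.22 with dose (adjusted p = 0.00114). At 12 h the deadenylase genes CNOT6 and CNOT7 were at -2.05 ± 0.22 (adjusted p = 0.00144) and -1.24 ± 0.26 (0.0107), and CNOT10, another subunit, at -1.59 ± 0.23 (0.00297) and at -1.16 ± 0.23 (0.0102) with dose. The median of the list was -0.73 at 12 h and -1.003 with dose, against -0.42 and -0.46 over all genes.

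Of 15 tubulin-modifying enzymes tested of 20, 5 were lower at 12 h (33.3%, against 25.2% of all genes) and 1 with dose (6.67%, against 21.9%), and under the scalings 2 and 1 at 12 h and 1 and 1 with dose. The share at 12 h is near that of all genes. HDAC6, the tubulin deacetylase, was at -1.93 ± 0.33 (adjusted p = 0.00545), TTL, which adds the terminal tyrosine, at -1.60 ± 0.28 (0.00566) and TTLL12 at -1.57 ± 0.37 (0.0167) at 12 h; TTLL4, a polyglutamylase, was at -2.18 ± 0.22 with dose (adjusted p = 0.000896). Of 10 genes of the gamma-tubulin ring complex, 1 was lower at 12 h, the targeting factor NEDD1 (-1.01 ± 0.21, adjusted p = 0.0106), and 2 with dose, TUBGCP3 (-1.42 ± 0.24, 0.00517) and TUBGCP5 (-1.14 ± 0.26, 0.0160). Both shares, 10% and 20%, are at or below those of all genes; under the scalings 0 were lower and 3 and 3 higher at 12 h, and with dose 1 and 0 were lower and 3 and 3 higher.

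Of 20 microtubule-binding proteins, 6 were lower and 1 higher at 12 h (30% lower, near the 25.2% of all genes), and 8 were lower with dose (40%, against 21.9%). Under the scalings 2 and 0 were lower and 2 and 4 higher at 12 h, and with dose 4 and 4 were lower and 0 and 1 higher. MAPRE1 (EB1, which tracks growing plus ends) was the one that rose at 12 h: DMSO and 12 h values were 106 and 260 FPKM in KYSE510, 120 and 185 FPKM in TE7 (log2 change 0.95 ± 0.25, adjusted p = 0.0234). KIF2A, a depolymerising kinesin, was at -1.78 ± 0.29 (adjusted p = 0.00428), CKAP5, a microtubule polymerase, at -1.47 ± 0.22 (0.00306) and MAP7 at -1.42 ± 0.26 (0.00656). With dose, MAP7D1 was at -2.42 ± 0.21 (adjusted p = 0.000622), MAP1S at -2.27 ± 0.46 (0.0111) and the severing enzyme gene KATNA1 at -1.67 ± 0.22 (0.00227).

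The actin list served as a second cytoskeletal set. Of 15 genes, ACTB was higher at 12 h (0.79 ± 0.17, adjusted p = 0.0133) and 0 were lower; with dose ACTG1 (-2.11 ± 0.35, adjusted p = 0.00507) and ACTB (-1.11 ± 0.17, 0.00410) were lower. Under the scalings 8 and 11 were higher and 0 lower at 12 h, and with dose 2 and 1 were lower and 3 and 3 higher. ACTG1 stood at 2409 FPKM at 50 nM and 413 FPKM at 200 nM in KYSE510, and at 1572 and 487 FPKM in TE7. Median log2 changes of the actin list were 0.19 at 12 h and -0.18 with dose. No list was tested as a set.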

How the data were processed

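Poly(A) RNA of 12 libraries was sequenced on Illumina instruments from TruSeq libraries, per the labels' protocols. The authors deposited FPKM per gene with 95% bounds, in tables with Cufflinks columns, per the file headers; STAR, Cufflinks and hg19 are named in the submitters' processing notes, with neither version, settings nor annotation. Read totals are unknown; FPKM sums were 383975 to 729515, and 11685 to 13982 genes reached 1 FPKM. Rows of 1 identifier at several loci (108 identifiers) were summed. The members are the rows with the 10 symbols; a second row named TUBB3, a readthrough, was kept apart.

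The 15610 genes that reached 1 FPKM in 2 or more libraries were tested two-sided on log2(FPKM + 1) with limma 3.58.1 (R 4.3.3, variance trend), with a term for each condition and for the line, and Benjamini-Hochberg adjustment over all genes at 0.05. Libraries with the same number come from the same line, and this is the pairing. The lines are the 2 replicates, so p-values measure the spread between these libraries. Slopes used 10 libraries with DMSO at 0 h. The fits were run on simulated data with independent noise and the same spread for every gene. That run checks the recovery of added changes, not the p-values of these data, where the spread differs between genes. Genes outside the family were named by a rule: from each list, up to 3 with the largest fall and 3 with the largest rise past the threshold and a mean of at least 5 FPKM. Alternatives were other pseudocounts, filters, scalings, no variance trend, no line term, 1 library left out, and the 3 libraries that stand apart left out; the lists under each scaling were added after seeing the data. The members and lists were chosen with earlier results of these data known. Marker lists of fibroblasts, leukocytes and endothelium summed to 3.60 to 18.98, 2.32 to 15.19 and 0.013 to 0.859 FPKM per library.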

Additional observations from a re-analysis of the deposited data

Results flagged for a closer look

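With 1 library per line and condition, a result is given here where KYSE510 and TE7 moved in opposite directions by more than 0.5 on the log2 scale each. Of 70 pairs of member and comparison, 27 had opposite signs in the lines and 7, in 4 genes, were this large. These differences between lines were not themselves tested, apart from the slopes over time, where no member passed.

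TUBA1A accounts for 4 of the 7. Its log2 change against DMSO was -1.53 in KYSE510 and 0.55 in TE7 at 2 h (TE7 minus KYSE510, 2.073), -1.23 and 0.71 at 6 h (1.933), and -1.20 and 1.94 at 12 h (3.143). From 50 to 200 nM it was 1.13 in KYSE510 and -4.53 in TE7 (-5.658). TUBB6 at 12 h against DMSO was 0.82 in KYSE510 and -0.65 in TE7 (-1.466). TUBA4A at 12 h was 1.21 and -0.67 (-1.88). TUBB2A at 200 nM against DMSO was 1.35 and -1.14 (-2.496). The comparisons with DMSO share the KYSE510 DMSO library, which stands apart.

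The readthrough row that also carries the symbol TUBB3 was left out of the comparisons. It was listed at 2.93 FPKM in KYSE510 at 200 nM, against 0.801 FPKM in KYSE510 DMSO, both of them libraries that stand apart. At 50 nM it was 0.198 to 0.503 FPKM in KYSE510. In TE7 it was 0.154 FPKM in DMSO, at most 0.0036 FPKM at 50 nM and 0.095 FPKM at 200 nM. The 200 nM value thus lay above those at 50 nM in both lines, and above DMSO in KYSE510 only. All TE7 values are near the floor.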

How the results depend on the processing

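The 5 genes called lower with dose kept their direction under every alternative run, with 4 to 7 members called lower. Over all comparisons, 2682 values of single genes kept their side of the threshold. They kept their sign too, or turned it by a shift smaller than the standard error of the main fit. A larger turn of sign with no call in either fit was seen in 63 values. The threshold was newly passed by 86 and no longer passed by 94, and 4 turned sign with a call in at least 1 fit. With 1 library left out, the lone one is assumed to vary like the other conditions. The cause of a change was not tested. Leaving out 1 library gave 0 to 2 members lower at 2 h, 0 to 1 higher and 0 to 1 lower at 4 h and at 6 h, and 0 to 2 higher and 0 to 1 lower at 12 h, all against DMSO. It gave 0 to 1 higher and 0 to 1 lower at 12 h against 2 h, 1 to 2 higher in TE7, and 0 to 3 rising slopes. Relative to TUBA1B it gave 0 to 1 lower and 0 to 1 higher at 12 h against DMSO, 0 to 3 lower at 12 h against 2 h, and 0 to 6 lower with dose.

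With no replicate block for the line, members called higher at 12 h against 2 h numbered 0 and rising slopes 0, slope differences 1 higher and 1 lower, and calls relative to TUBA1B 0 at 12 h against DMSO, 0 at 12 h against 2 h and 0 with dose. Without the 3 libraries that stand apart, 1 was higher at 4 h, 1 at 6 h, 3 at 12 h, 2 at 12 h against 2 h and 4 in TE7, and relative to TUBA1B 2 were lower at 12 h against DMSO and 5 at 12 h against 2 h. Scaled by median-of-ratios or by upper quartile, 4 and 6 were higher at 12 h against DMSO, 2 and 4 at 12 h against 2 h, and 6 and 7 slopes rose; 3 and 0 were lower at 200 nM against DMSO, and 1 was higher under upper-quartile scaling. With a pseudocount of 5, or a mean of at least 5 FPKM, 1 was higher at 12 h against DMSO. With no filter, 0 were higher at 12 h against 2 h and 0 slopes rose; 0 rose after equal sums, 5 without the 12 h libraries, and 1 fell on log2 hours. TUBB turned to 0.89 at 12 h against DMSO (limma adjusted p = 0.0393) under upper-quartile scaling, and its slope to 0.0554 and 0.0830 under the same pair of scalings. TUBA1B turned to 0.73 at 200 nM against DMSO (limma adjusted p = 0.0313) under upper-quartile scaling. As deposited, 459 genes were higher and 3412 lower with dose, against 908 and 1388 after equal sums, 1131 and 1551 under median-of-ratios, and 1522 and 1196 under upper-quartile scaling.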
